A study of Oryctolagus cuniculus with 134 samples.

Results

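The genes described here encode the ephrin, semaphorin, slit and netrin guidance cues and their receptors in rabbit aorta and heart valves. Members were every gene of the count tables whose symbol belongs to the EPHA or EPHB receptors, the EFNA or EFNB ephrins, the semaphorins (SEMA3 to SEMA6), the plexins, the neuropilins, the SLIT ligands, the ROBO receptors, the netrins or the UNC5 receptors. This rule used names only and found 61 of the 29587 genes listed, of which 14716 carry a symbol. The 61 comprise 8 EPHA and 5 EPHB receptors, 7 ephrins, 17 semaphorins, 7 plexins, 2 neuropilins, 3 SLIT ligands, 4 ROBO receptors, 4 netrins and 4 UNC5 receptors. EPHA8 never exceeded 3 counts in any library and NTN5 never exceeded 6, and EPHA8, NTN3, NTN5, ROBO3 and SLIT1 had median levels under 1 CPM (gene counts scaled to the TMM-adjusted library size) in every tissue on chow.

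Guidance cues were first described as signals that steer growing axons, and the same ligand and receptor pairs act on blood vessels, valve cushions and immune cells. Ephrins are held on the membrane of one cell and bind EPH receptor tyrosine kinases on a neighbouring cell, so both cells can receive a signal. Class 3 semaphorins are secreted and act through complexes of a neuropilin and a plexin, whereas most other semaphorins span the membrane and bind plexins directly. Slits bind ROBO receptors and netrins bind DCC or UNC5 receptors, and these receptors act on the cytoskeleton, which sets the shape and movement of the cell.

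All libraries came from male New Zealand White rabbits that entered a 16-week protocol at 12 weeks of age. Ctrl rabbits ate standard chow. CHT rabbits ate chow with 0.3% cholesterol and took vitamin D2 in their drinking water (25000 U per day per 2.5 kg) for the first 15 days, Lard rabbits ate 5% lard with the same vitamin D2, and IR/CHT rabbits were treated as CHT and in addition received 24 Gy of X-rays in 3 fractions of 8 Gy, aimed at the aortic valve and the thoracic aorta, after 8 weeks of diet. Ctrl rabbits carried no vitamin D2, so diet and vitamin D2 cannot be told apart in any comparison with Ctrl. Rabbits given vitamin D2 alone or irradiation alone are not analysed here. An aorta ring and the mitral, tricuspid, aortic and pulmonary valves were dissected from 27 rabbits, with 7 Ctrl, 6 CHT, 7 Lard and 7 IR/CHT libraries in each tissue except the mitral valve, which has 6 Ctrl libraries. These are bulk tissues, in which fewer cells of a type and less RNA per cell cannot be told apart.

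The 134 libraries held 13564979 to 50577676 gene counts (median 18235577), so 1 CPM stood for about 18.2 counts in the median library. No 2 libraries of a group were identical among the 384 pairs compared. Smooth muscle markers set the aorta apart from the valves: their summed level was 88359 to 120990.0 CPM (median 111279) in Ctrl aorta and 2229.7 to 3277 CPM (median 2582) in Ctrl aortic valve. Heart muscle markers were measurable in every valve and uneven, for example 189.4 to 12758 CPM (median 837) in Ctrl and 33.3 to 242.9 CPM (median 67.0) in IR/CHT aortic valve. Libraries also differed within their groups along 1 shared direction. It was computed after seeing the data as the first component of the 13514 expressed genes outside the families, and it held 28.5% of the variance within groups. The score used below was centred within each tissue, so the mean difference between tissues along it was removed before any fit. Of the 50 members measured alongside it, 18 (36%) had a correlation over 0.7 with this score, against 14.9% of all genes, and 0 members were under -0.7, against 14.7% of all genes. The members highest on it were PLXND1 (r = 0.94), PLXNA1 (r = 0.94), UNC5B (r = 0.92) and PLXNA3 (r = 0.92). These correlations describe 134 libraries that share the score's own scaling and carry no test. The score moved with treatment in the aorta, where it ran from -66.7 to 25.4 (median -22.6) in Ctrl and from -1.74 to 62.7 (median 34.8) in IR/CHT, so the counts of called members below are also given with the score as a covariate where they change.

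The first question was how the families differ between healthy tissues. On chow, 32 of the 53 members tested differed between the mean of the 4 valves and the aorta (60.4%, against 36.1% of all genes tested), 16 higher and 16 lower in the valves (20.4% and 15.7% of all genes). With the within-group score as a covariate 15 were higher and 17 lower, and with plate (the count table a library is on) as a covariate beside the rabbit 15 were higher and 10 lower. SEMA3C, SEMA3D and SEMA3G, 3 of the 6 secreted class 3 semaphorins tested, and EPHA3 were higher in the aorta, while the netrin receptor UNC5C was higher in the valves. SEMA3C, a secreted semaphorin required for outflow tract septation, read 539 to 731 CPM (median 666) in the aorta and 37.9 to 93.1 CPM (median 78.0) in the aortic valve, with no overlap (log2 fold change -3.34 ± 0.11, adjusted p = 2.8e-19; ± is the standard error of a log2 fold change throughout). UNC5C showed the opposite order, at 0.124 to 1.99 CPM (median 0.752) in the aorta and 15.8 to 24.96 CPM (median 21.1) in the aortic valve (log2 fold change 4.61 ± 0.26, adjusted p = 2.0e-14). EPHA5 was also an aorta gene among these tissues, at 29.5 to 54.9 CPM (median 40.0) there and 0.596 to 2.51 CPM (median 1.10) in the aortic valve (log2 fold change -4.41 ± 0.26, adjusted p = 4.0e-14).

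Other members lower in the valves were EPHA3 (median 162 CPM in aorta and 31.1 CPM in aortic valve, log2 fold change -2.94 ± 0.13, adjusted p = 5.3e-17), the semaphorin co-receptor NRP2 (log2 fold change -2.81 ± 0.14, adjusted p = 8.3e-16), the slit receptor ROBO2 (log2 fold change -1.85 ± 0.14, adjusted p = 1.0e-11), SEMA3D (log2 fold change -2.29 ± 0.17, adjusted p = 1.1e-11) and EFNB2, the arterial ephrin (log2 fold change -1.88 ± 0.16, adjusted p = 7.5e-11). Both slit ligands that were tested were lower in the valves as well, SLIT2 at -1.10 ± 0.17, adjusted p = 5.7e-06 and SLIT3 at -1.19 ± 0.15, adjusted p = 1.2e-07. NRP1 lay close to the fold limit of 1.5 (log2 fold change -0.59 ± 0.12, adjusted p = 0.00016) and its call was lost under DESeq2 and when any of 6 rabbits was left out, with log2 fold changes between -0.58 and -0.46. Among members higher in the valves, EFNB2's receptor EPHB4 stood at 0.96 ± 0.27, adjusted p = 0.0049. All aorta libraries lay on 1 of the 2 plates, so plate and tissue overlap in this contrast.

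Left-sided valves (aortic and mitral) and right-sided valves (pulmonary and tricuspid) differed for 32 of 53 members too, 26 higher and 6 lower on the left (60.4%, against 37.9% of all genes tested, 26.9% higher and 11% lower). Cell markers differed between these valves as well. Summed endothelial markers were 109 to 714 CPM (median 541.1) in the aortic, 96.0 to 1316 CPM (median 669) in the mitral, 1412 to 2086 CPM (median 1560.2) in the pulmonary and 436 to 1713 CPM (median 1472) in the tricuspid valve on chow, and heart muscle markers had medians of 837 CPM in the aortic and 9457 CPM in the tricuspid valve. With a heart muscle score as a covariate 25 members were higher and 5 lower on the left, and the part of the endothelial markers was not tested. PLXNA2, a receptor for SEMA6A and class 3 semaphorins, was at 122 to 272.6 CPM (median 145) in the aortic and at 65.6 to 106 CPM (median 75.4) in the pulmonary valve (log2 fold change 1.11 ± 0.15, adjusted p = 7.6e-06). EPHA4 ran the other way and was by median highest in the tricuspid valve, at 6.21 to 150.8 CPM (median 109.6), against 2.24 to 9.89 CPM (median 4.53) in the aortic valve (log2 fold change -2.30 ± 0.31, adjusted p = 9.1e-06). The EPHA4 ranges overlapped through 1 tricuspid library, and the other tricuspid libraries lay above all aortic valve libraries. PLXNA3 (2.21 ± 0.30, adjusted p = 1.0e-05), SEMA4A (1.89 ± 0.28, adjusted p = 1.6e-05), UNC5B (2.40 ± 0.36, adjusted p = 1.9e-05), PLXNA1 (2.29 ± 0.36, adjusted p = 2.6e-05) and EPHB3 (1.68 ± 0.27, adjusted p = 3.1e-05) were higher on the left and EPHA7 was lower (-1.07 ± 0.17, adjusted p = 3.1e-05). Of the 26 members higher on the left, 18 had a correlation over 0.7 with the within-group score, and 25 kept the call when the score entered as a covariate. NTN1 was the member that lost it (0.67 ± 0.25, adjusted p = 0.022 as tested, 0.50 with the covariate), and the part of the score in the other calls was not tested further. Because the score was centred within each tissue, these fits cannot show whether it has a part in this or the other tissue contrasts on chow.

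Semilunar (aortic and pulmonary) and atrioventricular (mitral and tricuspid) valves differed for 10 of 53 members (18.9%, against 6.13% of all genes tested, 1.6% higher and 4.53% lower), 3 higher and 7 lower in the semilunar pair, and 2 and 10 with the within-group score as a covariate. NRP1 was 38.9 to 54.0 CPM (median 43.8) in pulmonary and 101 to 179.1 CPM (median 135) in mitral valve (log2 fold change -1.10 ± 0.11, adjusted p = 1.6e-07). SLIT3 (-1.22 ± 0.15, adjusted p = 1.8e-06), EPHA4 (-1.86 ± 0.31, adjusted p = 0.00018), EPHB2 (-1.15 ± 0.23, adjusted p = 0.0010), NRP2 (-0.61 ± 0.14, adjusted p = 0.0050) and SEMA3A (-1.52 ± 0.40, adjusted p = 0.012) were lower too, and EPHB6 (1.63 ± 0.35, adjusted p = 0.0023) and EPHA3 (0.59 ± 0.13, adjusted p = 0.0041) were higher. EPHA3 and NRP2 sat near the fold limit, and both lost the call when any of 4 rabbits was left out. SEMA3A lost it when 1 rabbit was left out (-1.47). Leaving out either of 2 rabbits brought the count from 10 to 6.

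**Figure D1:**
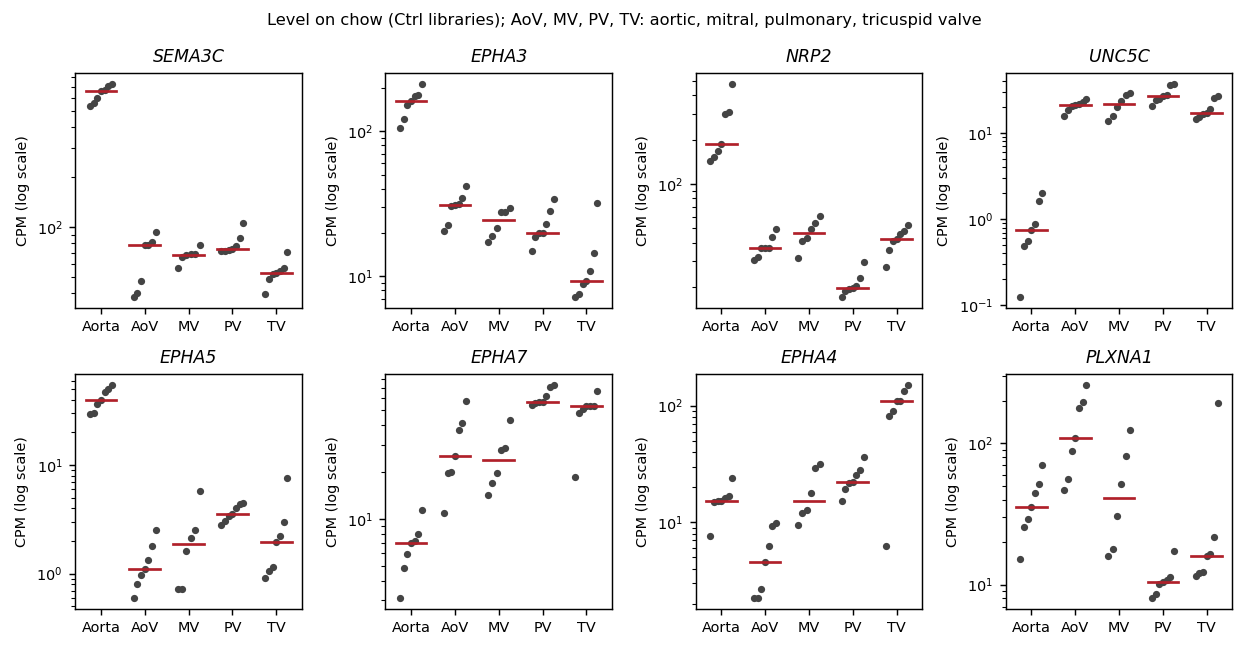
CPM of 8 guidance genes in the Ctrl libraries of the 5 tissues, on a log axis with 1 point for each library and a red bar at the median. SEMA3C, EPHA3 and EPHA5 sit highest in the aorta, UNC5C sits lowest there, and EPHA4 is highest by median in the tricuspid valve.

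Treatment was then compared with Ctrl within each tissue, where a member was called at an adjusted p under 0.05 and a fold change over 1.5. In the aorta 15 of 53 members tested were called after CHT (11 higher, 4 lower), which is 28.3% against 19.4% of all genes tested (14.2% higher, 5.18% lower), and 14 with the within-group score as a covariate. With the heart muscle score as a covariate the count was 10 (8 higher, 2 lower), and over all genes it went from 2863 to 2223. After IR/CHT 31 of 53 were called there (20 higher, 11 lower), 58.5% against 34.3% of all genes (22.2% higher, 12.2% lower), and 20 of 53 (8 higher, 12 lower) with the score, which also took the count over all 14777 genes from 5070 to 3473. In the aortic valve 6 of 55 members changed after CHT (4 higher, 2 lower), 10.9% against 11.9% of all genes, which is at the background, and 9 with the score (6 higher, 3 lower). After IR/CHT 37 of 55 aortic valve members changed, 9 higher and 28 lower, 67.3% against 42.8% of all genes (21.1% higher, 21.7% lower), and the count was 39 with the score as a covariate. With the heart muscle score as a covariate it was 29 (7 higher, 22 lower), and over all genes it went from 6587 to 5297. The median log2 fold change of all tested members in that comparison was -1.01, beside -0.06 for all genes. The mitral valve had 4 of 55 members called after CHT (3 higher, 1 lower; 7.27% against 5.62%) and 16 of 55 after IR/CHT (9 higher, 7 lower; 29.1% against 17.7%, of which 11.1% higher and 6.65% lower), the latter 20 with the score (9 higher, 11 lower). The mitral count after CHT was 0 without the 34 libraries in the upper 25% of the score. Groups whose ranges did not overlap after IR/CHT were seen for 14 of 53 members in the aorta (19.5% of all genes), 12 of 55 in the aortic valve (20.8%) and 6 of 55 in the mitral valve (10.1%). The shares in both valves are at the background.

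Of the members called after IR/CHT in both the aorta (31) and the aortic valve (37), 20 were shared. Among these, 13 moved in the same direction and 7 in opposite directions, namely EPHA5, PLXNA3, PLXNA4, PLXNB3, SEMA3F, SEMA4G and UNC5C. With the within-group score as a covariate 6 of these 7 lost the aorta call and EPHA5 kept it. The aortic and mitral valves shared 13 calls, all 13 in the same direction. SEMA4D, SEMA4A, NRP1 and ROBO4 were higher and EPHA7, ROBO1 and SEMA3D lower in all 3 tissues, and SEMA4D was the only member called after CHT in all 3, although in the aortic valve the call was lost on plate 1 alone, with fewer libraries and a log2 fold change of 1.401. Plate was uneven: all CHT aortic and mitral valve libraries were on plate 1, and with plate 1 alone 2 members were called after CHT in the aortic valve and 2 in the mitral valve. After IR/CHT the counts were 30 on plate 1 alone and 17 on plate 2 alone in the aortic valve, and 10 and 7 in the mitral valve. Leaving out CHT replicate L151 raised the aortic valve CHT count from 6 to 16, and leaving out CHT replicate L157, CHT replicate L266 or Ctrl replicate L241 lowered the mitral valve CHT count from 4 to 2.

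**Figure D2:**
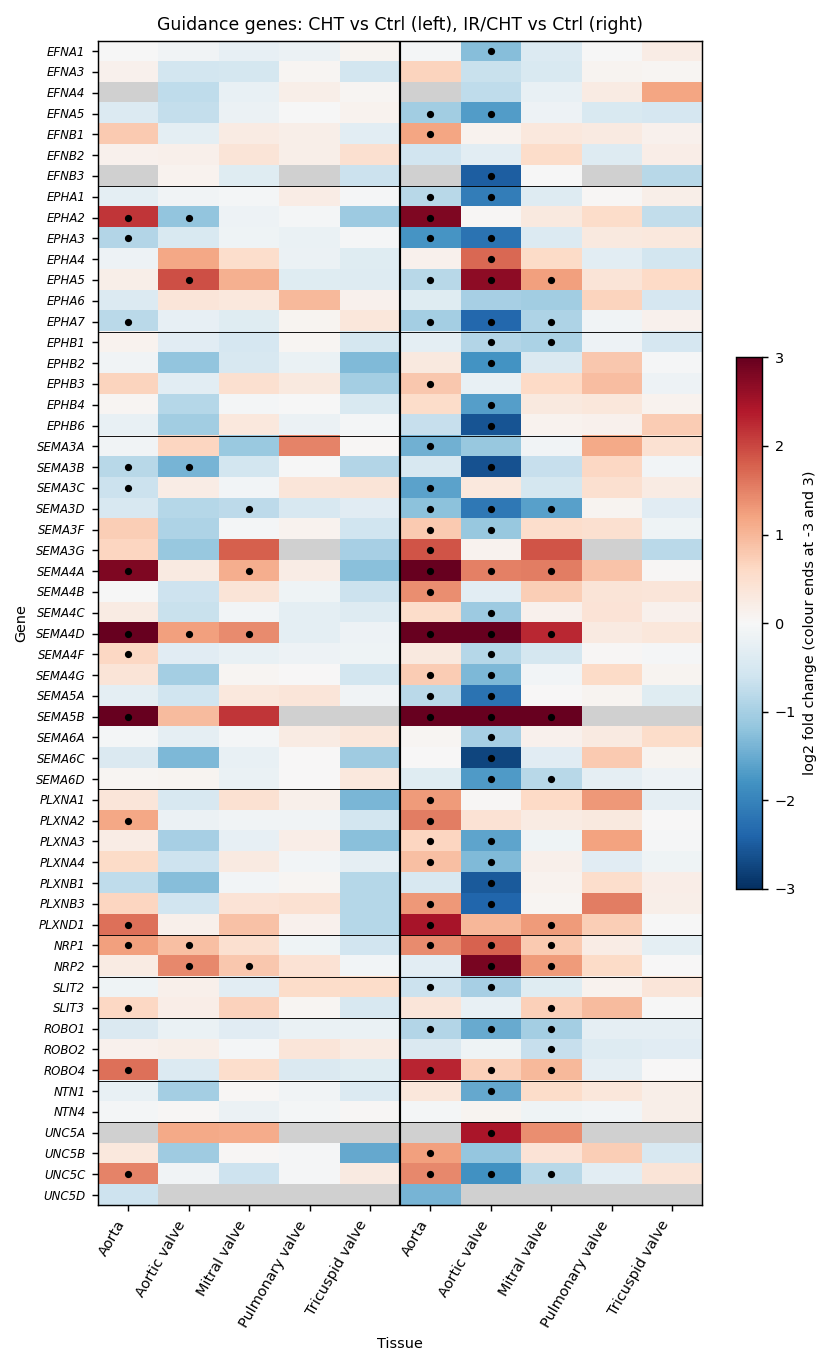
Log2 fold change of each tested member against Ctrl (colour, red higher and blue lower, ending at -3 and 3), with CHT in the left and IR/CHT in the right columns, 1 column per tissue, black dots for called members and grey for members not tested. SEMA4D and NRP1 are marked as higher in aorta and aortic valve after both treatments, and 28 of the 37 dots of the aortic valve after IR/CHT are decreases.

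Changes of immune cell, nerve, muscle and endothelial markers accompanied these counts. Summed macrophage markers (12 of 12 found) were 65.0 to 254 CPM (median 151.3) in Ctrl aorta, 1197 to 4062 CPM (median 1946) after CHT and 1807 to 6225 CPM (median 3316) after IR/CHT. They were 175.6 to 541.3 CPM (median 392) in Ctrl aortic valve and 5811 to 12472 CPM (median 6313) after IR/CHT, and 188.8 to 633 CPM (median 391) and 1415 to 4222 CPM (median 3311) in the mitral valve, with no overlap in any of these pairs. Markers of T cells (7 of 12 found), B cells (8 of 9) and neutrophils (10 of 10) were also higher after IR/CHT than in Ctrl in the aorta and the aortic and mitral valves, without overlap. In the aortic valve T cell markers were 0.787 to 4.87 CPM (median 2.19) in Ctrl, 6.46 to 17.3 CPM (median 11.8) after CHT and 22.4 to 50.4 CPM (median 40.2) after IR/CHT. B cell markers were 8.27 to 23.2 CPM (median 11.8) there in Ctrl, 49.4 to 109 CPM (median 76.8) after CHT and 137 to 193.3 CPM (median 168.3) after IR/CHT, and neutrophil markers were 6.25 to 22.2 CPM (median 7.67), 12.04 to 95.2 CPM (median 41.4) and 83.4 to 438 CPM (median 108). Smooth muscle markers (8 of 10 found) were 88359 to 120990.0 CPM (median 111279) in Ctrl aorta and 12936 to 66378 CPM (median 33928) after IR/CHT. The Schwann cell and nerve markers (9 of 12 found) were 508 to 859 CPM (median 688) in Ctrl aortic valve and 121 to 268.7 CPM (median 206) after IR/CHT, again without overlap. They were also lower without overlap in the aorta (626 to 846 CPM (median 698) in Ctrl, 219 to 602 CPM (median 293) after IR/CHT) and in the mitral valve (501 to 731 CPM (median 681) and 235.1 to 379 CPM (median 327)). In the aorta the sum and the single markers went different ways: of the 9 tested, 2 were called higher and 1 lower, with a median log2 fold change of 0.21. Endothelial markers (9 of 12 found) were 119 to 240.9 CPM (median 205) in Ctrl aorta and 275.6 to 1159 CPM (median 806) after IR/CHT. The part of these markers in the changes of the guidance genes was not tested.

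Among the EPH receptors, EPHA3 and EPHA7 were lower in the aorta and the aortic valve after IR/CHT, while EPHA2 after CHT and EPHA5 after IR/CHT moved in opposite directions in these tissues. EPHA3 in the aorta ranged 104 to 212 CPM (median 162) in Ctrl, 62.1 to 102 CPM (median 84.8) after CHT and 24.8 to 101 CPM (median 35.8) after IR/CHT. Every CHT and IR/CHT library was below every Ctrl library (log2 fold change -0.87 ± 0.24, adjusted p = 0.0083 and -1.76 ± 0.24, adjusted p = 1.3e-06). Aortic valve EPHA3 ranged 20.6 to 42.2 CPM (median 31.1) in Ctrl and 2.09 to 9.57 CPM (median 5.98) after IR/CHT (log2 fold change -2.22 ± 0.26, adjusted p = 8.9e-08). It did not pass the test after CHT (-0.46 ± 0.26, adjusted p = 0.22), and IR/CHT was lower than CHT (-1.76 ± 0.26, adjusted p = 3.4e-05). EPHA7 in the aortic valve was 10.9 to 57.2 CPM (median 25.2) in Ctrl and 1.22 to 9.08 CPM (median 6.75) after IR/CHT, again apart from each other (log2 fold change -2.34 ± 0.36, adjusted p = 6.7e-06), and was also called in the mitral valve (-0.93 ± 0.29, adjusted p = 0.020) and the aorta (-1.03 ± 0.29, adjusted p = 0.0045), where the call was lost with the score as a covariate.

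EPHA2, a receptor for EFNA1 found in endothelium and epithelium, was low in Ctrl aorta at 0.442 to 2.07 CPM (median 0.692), and it was 0.678 to 8.77 CPM (median 5.56) after CHT and 2.10 to 10.53 CPM (median 8.23) after IR/CHT (log2 fold change 2.15 ± 0.51, adjusted p = 0.0025 and 2.79 ± 0.51, adjusted p = 6.4e-05). IR/CHT libraries lay above all Ctrl libraries, whereas CHT libraries overlapped them. Its aortic valve level went from 9.67 to 33.5 CPM (median 17.5) in Ctrl to 5.71 to 13.3 CPM (median 8.70) after CHT (log2 fold change -1.18 ± 0.30, adjusted p = 0.0079), and this decrease did not pass on plate 1 alone, with plate as a covariate or without the 34 libraries in the upper 25% of the within-group score. After IR/CHT the aortic valve level was 10.1 to 25.7 CPM (median 19.2), close to Ctrl (0.03 ± 0.28, adjusted p = 0.94). EPHA5 in the aortic valve rose from 0.596 to 2.51 CPM (median 1.10) in Ctrl to 2.58 to 9.56 CPM (median 3.53) after CHT and 2.80 to 16.5 CPM (median 8.72) after IR/CHT, both above all Ctrl libraries (log2 fold change 1.94 ± 0.50, adjusted p = 0.0086 and 2.68 ± 0.50, adjusted p = 6.7e-05). The CHT call did not hold with the heart muscle score as a covariate (log2 fold change 1.54), on plate 1 alone (2.26) or without the upper 25% of the within-group score (1.68). Aorta EPHA5 was instead lower after IR/CHT (-0.84 ± 0.21, adjusted p = 0.0014). Aortic valve EPHA4 was 2.24 to 9.89 CPM (median 4.53) in Ctrl and 7.86 to 24.5 CPM (median 14.9) after IR/CHT, with overlapping ranges (log2 fold change 1.72 ± 0.41, adjusted p = 0.0010).

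After IR/CHT 4 of the 5 EPHB receptors were lower in the aortic valve (21.7% of all genes were), EPHB6 (-2.58 ± 0.50, adjusted p = 0.00013), EPHB2 (-1.79 ± 0.41, adjusted p = 0.00067), EPHB4 (-1.64 ± 0.39, adjusted p = 0.0012) and EPHB1 (-0.88 ± 0.33, adjusted p = 0.029), while 0 were higher. EFNB2, the ligand of EPHB4, was not called between treatments in any tissue, except in the aorta for IR/CHT against CHT under DESeq2 (-0.70) and when IR/CHT replicate L579 was left out (-0.72). Against Ctrl after IR/CHT it stood at -0.57 ± 0.17, adjusted p = 0.0080 in the aorta, -0.33 ± 0.28, adjusted p = 0.35 in the aortic valve, 0.54 ± 0.30, adjusted p = 0.18 in the mitral, -0.39 ± 0.18, adjusted p = 0.31 in the pulmonary and 0.21 ± 0.22, adjusted p = 0.93 in the tricuspid valve. The aorta value passes on its p but not on the fold limit. EPHB4 after IR/CHT was 0.55 ± 0.32, adjusted p = 0.16 in the aorta, 0.30 ± 0.26, adjusted p = 0.43 in the mitral, 0.34 ± 0.21, adjusted p = 0.45 in the pulmonary and 0.11 ± 0.35, adjusted p = 1.0 in the tricuspid valve, and its aortic valve call was lost on plate 2 alone (-1.40). Among the ephrins, aorta EFNA5 ranged 6.72 to 14.03 CPM (median 9.67) in Ctrl and 3.61 to 5.87 CPM (median 4.17) after IR/CHT, entirely below Ctrl (log2 fold change -1.04 ± 0.17, adjusted p = 2.4e-05), and in the aortic valve EFNA5 (-1.66 ± 0.53, adjusted p = 0.011), EFNA1 (-1.27 ± 0.26, adjusted p = 0.00026) and EFNB3 (-2.46 ± 0.92, adjusted p = 0.029) were lower too. EFNB1 was the ephrin higher in the aorta (1.18 ± 0.34, adjusted p = 0.0055), a call lost with the within-group score as a covariate.

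Of the 6 secreted class 3 semaphorins tested, 3 were lower and 2 higher in the aorta after IR/CHT (12.2% and 22.2% of all genes), 3 were lower in the aortic valve (21.7%) and 1 was lower in the mitral valve (6.65%). In the aorta SEMA3C ranged 539 to 731 CPM (median 666) in Ctrl, 269.95 to 598 CPM (median 348) after CHT and 102 to 348 CPM (median 201.7) after IR/CHT. Every IR/CHT library was below every Ctrl library (log2 fold change -1.62 ± 0.21, adjusted p = 8.4e-07), and the CHT ranges overlapped (-0.66 ± 0.22, adjusted p = 0.024), a call lost with the within-group score as a covariate. SEMA3D in the aorta went from 358 to 492 CPM (median 414) to 58.5 to 325 CPM (median 175.3) after IR/CHT (log2 fold change -1.22 ± 0.24, adjusted p = 0.00013). Mitral valve SEMA3D was 59.3 to 127 CPM (median 89.1) in Ctrl and 18.3 to 39.8 CPM (median 28.1) after IR/CHT, with a clear gap (log2 fold change -1.64 ± 0.22, adjusted p = 4.7e-06). Its mitral CHT change (-0.79 ± 0.23, adjusted p = 0.033) was lost on leaving out any of 8 single libraries, with log2 fold changes of -0.82 to -0.65, and also on plate 1 alone (-0.74). SEMA3B in the aortic valve was 66.6 to 254 CPM (median 136) in Ctrl, 26.3 to 114 CPM (median 50.2) after CHT and 13.9 to 51.8 CPM (median 22.0) after IR/CHT. The IR/CHT libraries were all below Ctrl (log2 fold change -2.60 ± 0.40, adjusted p = 6.6e-06), and the CHT call (-1.41 ± 0.41, adjusted p = 0.021) was lost on leaving out any of 6 single libraries, with log2 fold changes of -1.29 to -1.25, and also on plate 1 alone (-1.41) and with plate as a covariate (-1.07). SEMA3G (1.88 ± 0.54, adjusted p = 0.0055) and SEMA3F (0.80 ± 0.32, adjusted p = 0.038) were higher in the aorta after IR/CHT, and both of these calls were lost with the within-group score as a covariate.

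SEMA3A, its co-receptor NRP1 and its signalling receptor PLXNA1 were followed in every tissue. After IR/CHT SEMA3A was lower in the aorta (-1.44 ± 0.42, adjusted p = 0.0057), and it was -1.15 ± 0.88, adjusted p = 0.29 in the aortic, -0.11 ± 0.54, adjusted p = 0.91 in the mitral, 1.13 ± 0.52, adjusted p = 0.30 in the pulmonary and 0.46 ± 0.35, adjusted p = 0.83 in the tricuspid valve. The aorta call was lost with the score as a covariate (-1.02). PLXNA1 was higher in the aorta (1.28 ± 0.32, adjusted p = 0.0016; 0.37 and not called with the score), and it was 0.04 ± 0.49, adjusted p = 0.96 in the aortic, 0.60 ± 0.52, adjusted p = 0.43 in the mitral, 1.29 ± 0.37, adjusted p = 0.10 in the pulmonary and -0.27 ± 0.62, adjusted p = 1.0 in the tricuspid valve.

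Both neuropilins rose in the left-sided valves. NRP1, also a co-receptor for VEGF, ranged 63.7 to 192.9 CPM (median 119.9) in Ctrl aorta, 170.3 to 406 CPM (median 287) after CHT and 285 to 397 CPM (median 331) after IR/CHT (log2 fold change 1.23 ± 0.21, adjusted p = 5.9e-05 and 1.42 ± 0.20, adjusted p = 2.9e-06). In Ctrl aortic valve it was 54.6 to 105 CPM (median 75.1), against 92.8 to 208 CPM (median 131) after CHT and 214 to 295 CPM (median 249.3) after IR/CHT (log2 fold change 0.90 ± 0.19, adjusted p = 0.0015 and 1.76 ± 0.19, adjusted p = 1.8e-08). All IR/CHT libraries lay above all Ctrl libraries in both tissues. NRP1 also rose in the mitral valve after IR/CHT (0.79 ± 0.20, adjusted p = 0.0047), a call lost on either plate alone at log2 fold changes of 0.80 and 0.75, and stood at 0.22 ± 0.17, adjusted p = 0.57 in the pulmonary and -0.29 ± 0.22, adjusted p = 0.83 in the tricuspid valve. NRP2, which is prominent on lymphatic and venous endothelium and on myeloid cells, was 30.4 to 49.9 CPM (median 36.7) in Ctrl aortic valve, 65.6 to 142 CPM (median 98.05) after CHT and 182.98 to 388 CPM (median 232.5) after IR/CHT. The 3 ranges are fully apart (log2 fold change 1.45 ± 0.20, adjusted p = 6.2e-06, 2.84 ± 0.20, adjusted p = 1.8e-11, and IR/CHT against CHT 1.39 ± 0.20, adjusted p = 2.7e-05). In the mitral valve NRP2 was 31.5 to 60.3 CPM (median 46.4) in Ctrl, 65.4 to 100.4 CPM (median 78.9) after CHT and 61.0 to 141 CPM (median 115) after IR/CHT, both above Ctrl (log2 fold change 0.81 ± 0.20, adjusted p = 0.0096 and 1.27 ± 0.19, adjusted p = 2.2e-05). Aorta NRP2 did not pass the test after IR/CHT (-0.31 ± 0.23, adjusted p = 0.26).

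Class 4 semaphorins held the member with the smallest p in the aorta and the mitral valve, both after CHT and after IR/CHT. SEMA4D, a transmembrane semaphorin of lymphocytes and other immune cells that binds PLXNB1 and CD72, ranged 1.82 to 4.89 CPM (median 4.22) in Ctrl aorta, 18.6 to 73.2 CPM (median 56.1) after CHT and 36.0 to 141 CPM (median 78.9) after IR/CHT. Neither treated group overlapped Ctrl (log2 fold change 3.81 ± 0.39, adjusted p = 4.9e-08 and 4.61 ± 0.40, adjusted p = 1.3e-09). Aortic valve levels were 7.96 to 25.3 CPM (median 17.2) in Ctrl, 29.0 to 57.6 CPM (median 37.3) after CHT and 104 to 206 CPM (median 139.9) after IR/CHT, 3 ranges without overlap (log2 fold change 1.22 ± 0.27, adjusted p = 0.0026, 3.06 ± 0.28, adjusted p = 1.5e-09, and IR/CHT against CHT 1.84 ± 0.28, adjusted p = 4.6e-05). T cell, B cell and other immune markers moved with SEMA4D in these tissues as given above, and their part was not tested. Mitral valve levels were 7.69 to 20.7 CPM (median 13.4) in Ctrl, 16.6 to 53.7 CPM (median 37.3) after CHT and 32.2 to 81.9 CPM (median 60.4) after IR/CHT. There only the IR/CHT range was clear of Ctrl (log2 fold change 1.43 ± 0.30, adjusted p = 0.0028 and 2.26 ± 0.30, adjusted p = 4.3e-06). SEMA4A, another semaphorin of immune cells, was 0.253 to 4.36 CPM (median 1.44) in Ctrl aorta, 2.59 to 21.7 CPM (median 12.4) after CHT and 7.92 to 33.5 CPM (median 19.9) after IR/CHT (log2 fold change 2.80 ± 0.50, adjusted p = 0.00010 and 3.63 ± 0.50, adjusted p = 1.9e-06). Its mitral valve level was 5.43 to 9.41 CPM (median 7.53) in Ctrl, 6.66 to 27.2 CPM (median 14.3) after CHT and 10.97 to 27.8 CPM (median 23.6) after IR/CHT (log2 fold change 1.10 ± 0.30, adjusted p = 0.023 and 1.54 ± 0.29, adjusted p = 0.00033). The mitral CHT call was lost on leaving out any of 4 single libraries, with log2 fold changes of 0.86 to 1.06, and on plate 1 alone (1.03).

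**Figure D3:**
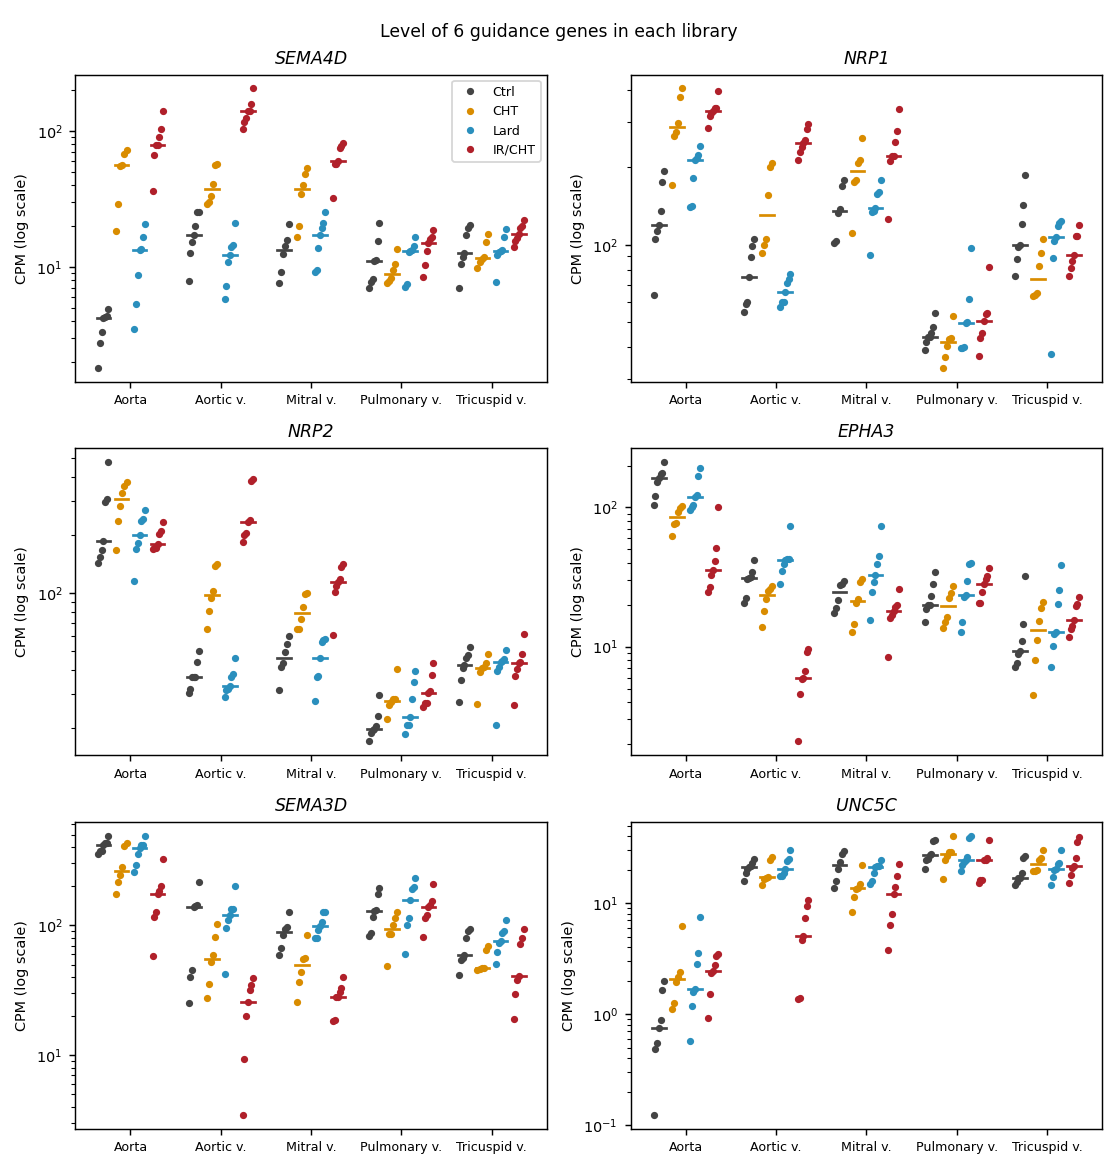
CPM of 6 guidance genes in every Ctrl, CHT, Lard and IR/CHT library of the 5 tissues, on a log axis with 1 point for each library and a bar at the group median. SEMA4D and NRP2 in the aortic valve lie in separate bands for Ctrl, CHT and IR/CHT, and EPHA3 after IR/CHT sits below all Ctrl libraries in the aorta and the aortic valve.

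Among class 5 and 6 semaphorins, transmembrane proteins, SEMA5A, SEMA6A, SEMA6C and SEMA6D were lower in the aortic valve after IR/CHT. SEMA5A in the aortic valve ranged 21.9 to 60.5 CPM (median 26.8) in Ctrl and 3.54 to 14.7 CPM (median 6.03) after IR/CHT (log2 fold change -2.22 ± 0.29, adjusted p = 4.5e-07). SEMA6D, a ligand of PLXNA1 in the developing heart, was 17.5 to 40.7 CPM (median 29.1) in Ctrl, 20.2 to 42.0 CPM (median 30.9) after CHT and 5.48 to 12.1 CPM (median 7.64) after IR/CHT. The CHT range lay across the Ctrl range (log2 fold change 0.08 ± 0.22, adjusted p = 0.83), and the IR/CHT range was below both (-1.70 ± 0.22, adjusted p = 3.4e-07 against Ctrl, -1.77 ± 0.22, adjusted p = 6.1e-06 against CHT). SEMA6D was lower in the mitral valve as well (-0.84 ± 0.18, adjusted p = 0.0011), though not on plate 1 alone (-0.74). SEMA5B was near 0 in Ctrl, with medians of 0.0564 CPM in the aortic and 0.135 CPM in the mitral valve, and its medians after IR/CHT were 1.12, 1.97 and 1.31 CPM in the aorta and the aortic and mitral valves. It passed the filter on low counts in these 3 tissues and not in the right-sided valves, so it was tested only where a treated group was higher, and its calls, which stand in the counts above, are no support for a change. SEMA6C (-2.76 ± 0.52, adjusted p = 8.5e-05) and SEMA6A (-1.01 ± 0.34, adjusted p = 0.015) were lower in the aortic valve after IR/CHT.

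Of the 7 plexins, receptors for these semaphorins, 6 were higher and 0 lower in the aorta after IR/CHT, where 22.2% of all genes were higher. In the aortic valve 0 were higher and 4 lower, against 21.7% of all genes lower (PLXNB3, PLXNB1, PLXNA3 and PLXNA4). PLXND1, a receptor for class 3 semaphorins on endothelium, ranged 13.3 to 54.1 CPM (median 22.7) in Ctrl aorta, 44.1 to 133 CPM (median 93.1) after CHT and 83.4 to 282 CPM (median 153.6) after IR/CHT (log2 fold change 1.65 ± 0.39, adjusted p = 0.0025 and 2.47 ± 0.39, adjusted p = 1.3e-05). IR/CHT libraries stood above all Ctrl libraries. PLXNA2 in the aorta was also higher after CHT (1.16 ± 0.24, adjusted p = 0.00063) and IR/CHT (1.53 ± 0.24, adjusted p = 8.7e-06). PLXNB3 showed the widest split, 1.31 ± 0.38, adjusted p = 0.0058 in the aorta and -2.37 ± 0.54, adjusted p = 0.00065 in the aortic valve. With the within-group score as a covariate, 12 of the 20 members higher in the aorta after IR/CHT lost the call, PLXNA1, PLXNA3, PLXNA4 and PLXNB3 among them, and PLXND1 and PLXNA2 kept it.

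Among the slits and their receptors, ROBO1 fell in the 3 tissues with many calls and ROBO4 rose in them. ROBO1, the main SLIT2 receptor, ranged 131 to 399.8 CPM (median 299) in Ctrl aortic valve and 31.2 to 140.4 CPM (median 102) after IR/CHT, and the ranges overlapped (log2 fold change -1.52 ± 0.28, adjusted p = 6.3e-05). Mitral valve ROBO1 was 192.6 to 272.4 CPM (median 226) in Ctrl and 67.7 to 146 CPM (median 116) after IR/CHT, with no overlap (log2 fold change -1.01 ± 0.17, adjusted p = 7.3e-05). It was lower in the aorta as well (-0.89 ± 0.17, adjusted p = 9.1e-05; -0.54 and not called without the upper 25% of the within-group score), and it stood at -0.26 ± 0.19, adjusted p = 0.54 in the pulmonary and -0.28 ± 0.13, adjusted p = 0.59 in the tricuspid valve. SLIT2 was lower after IR/CHT in the aorta (-0.64 ± 0.16, adjusted p = 0.0020) and the aortic valve (-1.01 ± 0.33, adjusted p = 0.014), and it was -0.35 ± 0.18, adjusted p = 0.15 in the mitral, 0.10 ± 0.16, adjusted p = 0.80 in the pulmonary and 0.36 ± 0.23, adjusted p = 0.75 in the tricuspid valve. The aorta call for SLIT2 was lost without Ctrl replicate L569 (-0.58), without IR/CHT replicate L566 (-0.53) and with the score as a covariate (-0.45), and its aortic valve call was lost on plate 2 alone (-0.40). ROBO4, the ROBO receptor of endothelium, ranged 3.29 to 8.32 CPM (median 4.51) in Ctrl aorta, 3.02 to 25.5 CPM (median 18.5) after CHT and 11.8 to 34.0 CPM (median 22.2) after IR/CHT (log2 fold change 1.66 ± 0.37, adjusted p = 0.0014 and 2.29 ± 0.37, adjusted p = 1.4e-05). It was higher after IR/CHT in the aortic (0.71 ± 0.29, adjusted p = 0.041) and mitral valve (0.98 ± 0.28, adjusted p = 0.011) too. SLIT3 was higher after CHT in the aorta (0.63 ± 0.16, adjusted p = 0.0036) and after IR/CHT in the mitral valve (0.71 ± 0.23, adjusted p = 0.024), the latter call being lost with the within-group score as a covariate.

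Netrins gave 1 call against Ctrl in all tissues, and their UNC5 receptors moved in different directions between tissues and within the aortic valve. There UNC5A was called higher and UNC5C lower after IR/CHT. UNC5A passed the filter on low counts in only 8 comparisons, against 20 for UNC5C, and no support is drawn from its call. UNC5C in the aortic valve ranged 15.8 to 24.96 CPM (median 21.1) in Ctrl, 14.5 to 26.2 CPM (median 17.2) after CHT and 1.37 to 10.6 CPM (median 5.11) after IR/CHT, the last entirely below Ctrl (log2 fold change -1.82 ± 0.32, adjusted p = 3.4e-05). In the aorta it was far lower to begin with, at 0.124 to 1.99 CPM (median 0.752), and was 0.930 to 3.49 CPM (median 2.43) after IR/CHT with overlapping ranges (log2 fold change 1.45 ± 0.53, adjusted p = 0.024), a call lost with the within-group score as a covariate. NTN1 was lower in the aortic valve after IR/CHT (-1.53 ± 0.52, adjusted p = 0.016), a call lost without Ctrl replicate L166 (-1.26), on plate 1 (-1.66) or plate 2 (-1.33) alone and with the heart muscle score as a covariate (-1.65), and it stood at 0.35 ± 0.36, adjusted p = 0.44 in the aorta, 0.55 ± 0.27, adjusted p = 0.14 in the mitral, 0.33 ± 0.15, adjusted p = 0.29 in the pulmonary and 0.18 ± 0.40, adjusted p = 1.0 in the tricuspid valve. UNC5B was higher in the aorta after IR/CHT (1.22 ± 0.48, adjusted p = 0.034), and the call was lost when any of 6 single libraries (Ctrl L553, L568 or L570, IR/CHT L566, L567 or L582) was left out, at 1.0 to 1.19. With the within-group score as a covariate its log2 fold change was -0.18, the opposite sign. Elsewhere UNC5B was -1.15 ± 0.53, adjusted p = 0.076 in the aortic, 0.40 ± 0.52, adjusted p = 0.62 in the mitral, 0.74 ± 0.42, adjusted p = 0.41 in the pulmonary and -0.48 ± 0.69, adjusted p = 0.98 in the tricuspid valve. NTN4, a basement membrane netrin, had Ctrl medians of 90.9 CPM in aorta and 151.03 CPM in pulmonary valve, and was called in none of the comparisons with Ctrl.

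**Figure D4:**
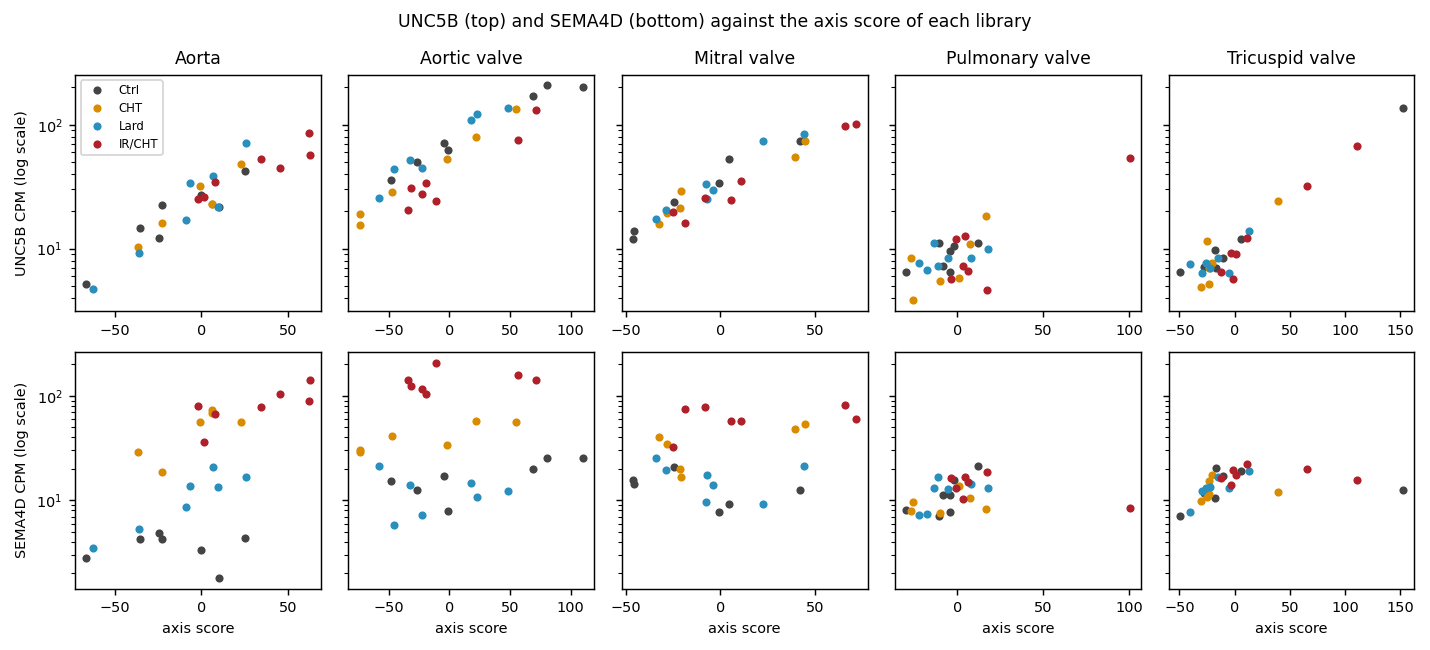
CPM of UNC5B (top) and SEMA4D (bottom) on a log axis against the within-group score (axis score, no unit) of each library, by tissue and treatment. UNC5B climbs with the score in the aorta and both left-sided valves, while SEMA4D after IR/CHT lies above Ctrl in these tissues. In the aorta Ctrl scores end at 25.4 and IR/CHT scores start at -1.74, so the groups share only part of the score range.

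IR/CHT was set directly against CHT to see what irradiation added to the diet. In the aortic valve 22 of 55 members were called (8 higher, 14 lower; 40%, against 19.7% of all genes tested, 9.9% higher and 9.85% lower), and 31 with the within-group score as a covariate (8 higher, 23 lower), which took the count over all 15408 genes from 3043 to 4246. All CHT libraries of this valve were on plate 1, and on plate 1 alone 17 members were called (3 higher, 14 lower). With plate as a covariate the count was 20 (6 higher, 14 lower). EPHA7 (-2.10 ± 0.37, adjusted p = 0.00019), SEMA5A (-1.62 ± 0.29, adjusted p = 0.00022), UNC5C (-1.71 ± 0.32, adjusted p = 0.00040) and ROBO1 (-1.32 ± 0.29, adjusted p = 0.0014) were lower than after CHT alone, with ranges that do not overlap, and NRP1 was higher (0.86 ± 0.19, adjusted p = 0.0017). In the aorta 2 of 53 members were called, EPHA5 (-1.02 ± 0.21, adjusted p = 0.029) and SEMA3C (-0.96 ± 0.21, adjusted p = 0.033), both lower after IR/CHT (0.596% of all genes tested). That count rests on single libraries: it was 0 without CHT replicate L560 or L573 or without IR/CHT replicate L565, L566 or L567, it was 1 without IR/CHT replicate L581 or L582, it was 8 without IR/CHT replicate L579, and it was 0 with the score as a covariate. It was also 0 with the heart muscle score as a covariate (EPHA5 -1.18, SEMA3C -1.04) and when only these 2 groups were fitted (EPHA5 -1.03, SEMA3C -0.98). In the mitral valve edgeR called 0 of 55 (0.189% of all genes tested), with 10 at an unadjusted p under 0.05 and 2 called by DESeq2, and the count was 3 without CHT replicate L157 or L266 and 2 without IR/CHT replicate L175.

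The Lard diet moved few members. In the aorta SEMA4D was the 1 member called of 53 (2.61% of all genes tested), at 3.48 to 20.9 CPM (median 13.4) against 1.82 to 4.89 CPM (median 4.22) in Ctrl, with overlapping ranges (log2 fold change 1.69 ± 0.37, adjusted p = 0.012). Macrophage markers were 203 to 771 CPM (median 314) in Lard aorta against 65.0 to 254 CPM (median 151.3) in Ctrl, with 9 of 12 called higher, and their part was not tested. The aorta count was 2 without Ctrl replicate L570, 3 without Lard replicate L576, 4 without Lard replicate L563 0 when only Lard and Ctrl libraries were fitted and 4 with the within-group score as a covariate. The aortic valve had 0 of 55 called by edgeR (0.234% of all genes tested), with 5 at an unadjusted p under 0.05 and 1 called by DESeq2, and 1 called without Ctrl replicate L198. In the mitral valve edgeR called 0 of 55 members, and 0 of all 15322 genes tested, and DESeq2 called 0 members, with 1 at an unadjusted p under 0.05 in edgeR.

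Right-sided valves gave no call between treatments in the main edgeR fits. In the pulmonary valve edgeR called 0 of 51 members after CHT, Lard or IR/CHT, or between IR/CHT and CHT, with 3, 1, 15 and 17 at an unadjusted p under 0.05, and DESeq2 called 0, 0, 3 and 2. All genes tested there were called at 0.159% after CHT and 0.706% after IR/CHT. The IR/CHT count was 1 without Ctrl replicate L184. In the tricuspid valve edgeR called 0 of 53 and DESeq2 0 of 61 in each of the 4 comparisons, with 8, 12, 3 and 7 at an unadjusted p under 0.05, and all genes were called at 0.163% after CHT and 0.231% after IR/CHT. There 1 library stood apart: UNC5B was 6.53 to 138 CPM (median 8.36) in Ctrl, the highest value being replicate L168, whose within-group score of 152.9 was also the highest of its group. Without it 6 members were called after IR/CHT, SEMA6A, SEMA4A, PLXND1, EPHB4, PLXNA3 and PLXNB3. EPHA4, the member richest in this valve on chow by fold over the aortic valve, was 6.21 to 150.8 CPM (median 109.6) in Ctrl and 23.1 to 151.4 CPM (median 49.2) after IR/CHT (-0.56 ± 0.48, adjusted p = 0.87). Macrophage markers in the tricuspid valve were 428 to 749 CPM (median 539.8) in Ctrl and 329 to 854 CPM (median 769) after IR/CHT.

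Whether a response differed between tissues was tested as an interaction, with the rabbit as a block and adjusted p alone as the call. The aortic valve response to IR/CHT differed from that of the aorta for 38 of 57 members, 4 more positive and 34 more negative in the valve (66.7%, against 35.3% of all genes tested), and the response to CHT differed for 11 of 57 (2 and 9; 19.3% against 6.86%). After IR/CHT the difference of log2 fold changes, aortic valve minus aorta, was 2.85 ± 0.28, adjusted p = 6.4e-08 for NRP2, 1.91 ± 0.23, adjusted p = 9.7e-07 for SEMA3C, -3.87 ± 0.57, adjusted p = 1.4e-05 for PLXNB3 and 3.34 ± 0.52, adjusted p = 3.1e-05 for EPHA5. After CHT it was -2.66 ± 0.46, adjusted p = 0.00094 for SEMA4A, -3.16 ± 0.58, adjusted p = 0.0018 for EPHA2, -2.51 ± 0.48, adjusted p = 0.0025 for SEMA4D and -0.99 ± 0.22, adjusted p = 0.0088 for SEMA4F. With the within-group score as a covariate the counts were 28 after IR/CHT and 6 after CHT, while over all 16125 genes they went from 5686 to 4214 and from 1106 to 591. In this contrast plate 2 held the aorta and plate 1 the CHT aortic valve libraries. With plate as a covariate beside the rabbit the counts were 36 after IR/CHT and 5 after CHT (0 more positive, 5 more negative), and DESeq2 gave 17 after CHT.

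The left-sided valves were set against their right-sided partners in the same way. Aortic minus pulmonary valve differed after IR/CHT for 33 of 55 members (6 more positive, 27 more negative; 60% against 39.2% of all genes) and after CHT for 4 of 55, all more positive in the aortic valve (7.27% against 5.2%). After IR/CHT the difference was 2.74 ± 0.27, adjusted p = 8.6e-09 for SEMA4D, -2.65 ± 0.30, adjusted p = 7.6e-08 for EPHA3, 2.15 ± 0.27, adjusted p = 4.0e-07 for NRP2 and -2.37 ± 0.34, adjusted p = 3.7e-06 for SEMA5A. The 4 after CHT were SEMA4D (1.47 ± 0.28, adjusted p = 0.00098), EPHA5 (2.25 ± 0.58, adjusted p = 0.018), NRP1 (0.98 ± 0.27, adjusted p = 0.030) and NRP2 (0.97 ± 0.27, adjusted p = 0.036), of which EPHA5 lost the call with plate as a covariate (2.05). With the within-group score as a covariate 33 differed after IR/CHT and 6 after CHT. Mitral minus tricuspid valve differed for 18 of 56 members after IR/CHT (6 more positive, 12 more negative; 32.1% against 18%), led by SEMA4D (1.91 ± 0.30, adjusted p = 8.0e-05), SEMA4F (-0.77 ± 0.15, adjusted p = 0.00074), UNC5C (-1.25 ± 0.27, adjusted p = 0.0019) and SLIT2 (-0.86 ± 0.20, adjusted p = 0.0033). After CHT 2 of 56 differed (3.57% against 2.72%), SLIT2 (-0.99 ± 0.21, adjusted p = 0.0071) and SEMA4D (1.47 ± 0.32, adjusted p = 0.0087), and both calls were lost with plate as a covariate beside the rabbit (-0.93 and 1.12). The score as a covariate gave 27 after IR/CHT and 4 after CHT. Without the rabbit block the mitral minus tricuspid counts were 8 after IR/CHT and 1 after CHT, and the SLIT2 and SEMA4F calls were among those lost. The beam was aimed at the aortic valve and the thoracic aorta, and the dose that reached each other valve is not given in the sources used here.

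Signalling partners outside the families were followed as fixed lists, read against the 34.3% of all genes called in the aorta, 42.8% in the aortic valve and 17.7% in the mitral valve after IR/CHT. Of 22 ephrin partners, 19 were tested in the aorta and 8 were called (6 higher, 2 lower), among them TIAM1 (2.99 ± 0.31, adjusted p = 2.4e-08), a Rac activator, and PAK1 (3.05 ± 0.35, adjusted p = 9.9e-08), a kinase downstream of Rac. In the aortic valve 4 of 18 were higher and 4 lower, which is at the background, with VAV3, an exchange factor for small GTPases, at 3.07 ± 0.28, adjusted p = 1.0e-09. In the mitral valve 2 were higher and 1 lower of 18, also at the background. Of 22 semaphorin partners, 18 were tested in the aorta with 2 higher and 4 lower, again at the background, and the aortic valve had 4 higher and 7 lower and the mitral valve 2 higher and 3 lower of 18. TYROBP, an adaptor of myeloid receptors that is also a macrophage marker, was 5.47 ± 0.44, adjusted p = 4.9e-10 in the aorta, and ITGB1, an integrin subunit, was -1.07 ± 0.17, adjusted p = 1.3e-05. Of 18 slit and netrin partners, 13 were tested in the aorta with 2 higher and 1 lower, a share below that of all genes. The aortic valve had 2 higher and 5 lower of 13, PTK2, the focal adhesion kinase, at -1.13 ± 0.12, adjusted p = 2.8e-08, and the mitral valve had 3 higher and 2 lower of 13, a share above that of all genes. Macrophage markers moved with these lists as given above, and their part was not tested.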

How the data were processed

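RNA was measured in 134 libraries of aorta and 4 heart valves from 27 male rabbits. Per the labels and the study's methods, libraries were made from total RNA with a stranded low-input kit, and the authors aligned reads to OryCun2.0 with the nf-core rnaseq pipeline and deposited raw counts per gene in 1 table per plate. The pipeline was run with default parameters apart from read trimming and no strand setting is named, so reads of overlapping and antisense genes may not be told apart. Gene lengths were not used, so levels are compared between samples and not between genes. Counts were tested in edgeR 4.0.16 (R 4.3.3) by quasi-likelihood with TMM scaling and Benjamini-Hochberg adjustment over all genes tested, after a filter on low counts, within each tissue over its 4 treatments. Calls needed an adjusted p under 0.05 and a fold change over 1.5. Contrasts between tissues carried the rabbit as a block, read from the library names. Libraries of 1 rabbit moved together, most clearly in aortic and mitral valve (median r 0.44, 26 of 26 pairs over 0.1). DESeq2 1.42.0, other filters, covariates and omitted libraries were alternatives, and the within-group score was chosen after seeing the data. The test was checked on simulated data. Named members were, per comparison, the 8 called ones with the smallest p (4 per interaction), plus 4 ligand and receptor sets in every tissue, and other members described in full were chosen after their values were seen. The members and lists were chosen with earlier results of these data known. Rabbits within a group were separate animals. One fixed list is not reported here.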

Additional observations from a re-analysis of the deposited data

Results flagged for a closer look

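In 13 of 128 groups of libraries checked, 1 library lay far from the others of its group, and in all 13 it was the highest. The genes checked were partly chosen after their values were seen and share libraries, so this count cannot be set against a chance rate. UNC5B stood out in the tricuspid valve in all 4 groups, at 138 CPM in Ctrl replicate L168, 24.1 CPM in CHT replicate L172, 13.8 CPM in Lard replicate L546 and 67.2 CPM in IR/CHT replicate L197, and in the pulmonary valve at 53.8 CPM in IR/CHT replicate L275. The within-group score was highest of their groups in all 5 of these libraries, at 152.9 in L168, 39.0 in L172, 13.5 in L546, 111 in L197 and 100.5 in L275, and its part in these values was not tested. In the aorta SEMA4A was 4.36 CPM in Ctrl replicate L552, EPHA3 was 101 CPM in IR/CHT replicate L579, and UNC5C was 6.18 CPM in CHT replicate L559 and 7.51 CPM in Lard replicate L562. In the aortic valve EPHA3 was 74.0 CPM and ROBO1 457 CPM in Lard replicate L152, SEMA3B was 51.8 CPM in IR/CHT replicate L194, and EPHA2 was 18.6 CPM in Lard replicate L269.

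Responses that differed between tissues by the test of the difference numbered 11 members after CHT (19.3%, against 6.86% of all genes) and 38 after IR/CHT (66.7% against 35.3%) for aortic valve minus aorta. The differences of log2 fold changes were -2.66 for SEMA4A, -3.16 for EPHA2, -2.51 for SEMA4D and -0.99 for SEMA4F after CHT, and 2.85 for NRP2, 1.91 for SEMA3C, -3.87 for PLXNB3 and 3.34 for EPHA5 after IR/CHT. For aortic minus pulmonary valve 4 members differed after CHT (7.27%, against 5.2% of all genes) and 33 after IR/CHT (60% against 39.2%). The differences were 1.47 for SEMA4D, 2.25 for EPHA5, 0.98 for NRP1 and 0.97 for NRP2 after CHT, and 2.74 for SEMA4D, -2.65 for EPHA3, 2.15 for NRP2 and -2.37 for SEMA5A after IR/CHT. For mitral minus tricuspid valve 2 members differed after CHT (3.57%, against 2.72% of all genes), SLIT2 by -0.99 and SEMA4D by 1.47. After IR/CHT 18 differed (32.1% against 18%), with SEMA4D at 1.91, SEMA4F at -0.77, UNC5C at -1.25 and SLIT2 at -0.86.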

How the results depend on the processing

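Across 29 counts of called members, 43 of 281 values under alternatives moved by over 1.5 times and the rest did not. Of 1055 values for the named members, 955 were labelled as keeping direction and call, 99 as keeping direction but losing the call, and 1 turned: UNC5B in the aorta after IR/CHT, from 1.22 to -0.18 with the within-group score as a covariate. Fits with 1 library left out entered only as their lowest and highest log2 fold change, and both were labelled as losing the call if any omission lost it. The cause of these moves was not tested. Under DESeq2 the counts moved to 4 (aorta, Lard), 7 (aorta, IR/CHT against CHT), 10 (aortic valve, CHT), 1 (aortic valve, Lard), 2 (mitral valve, IR/CHT against CHT), 3 (pulmonary valve, IR/CHT), 2 (pulmonary valve, IR/CHT against CHT), 17 (aortic valve minus aorta, CHT) and 6 (mitral minus tricuspid valve, CHT). Fitting only the 2 groups compared gave 0 in the aorta for Lard and for IR/CHT against CHT, and a heart muscle score as a covariate gave 0 for the latter. Plate 1 alone gave 2 (aortic valve, CHT), 2 (mitral valve, CHT), 10 (mitral valve, IR/CHT) and 2 (tricuspid valve, IR/CHT), and plate 2 alone gave 17 (aortic valve, IR/CHT) and 7 (mitral valve, IR/CHT), with fewer libraries in each. Plate as a covariate gave 5 (aortic valve minus aorta, CHT) and 0 (mitral minus tricuspid valve, CHT). The within-group score, added after seeing the data, gave 4 (aorta, Lard), 20 (aorta, IR/CHT), 0 (aorta, IR/CHT against CHT), 6 (aortic valve minus aorta, CHT) and 4 (mitral minus tricuspid valve, CHT). Leaving out the 34 libraries in its upper 25%, also added then, gave 0 (aorta, Lard), 16 (aorta, IR/CHT), 0 (aorta, IR/CHT against CHT), 0 (mitral valve, CHT), 4 (mitral valve, IR/CHT against CHT) and 2 (tricuspid valve, IR/CHT).

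Leaving out 1 library gave 1 to 4 (aorta, Lard), 0 to 8 (aorta, IR/CHT against CHT), 5 to 16 (aortic valve, CHT), 0 to 1 (aortic valve, Lard), 2 to 5 (mitral valve, CHT), 0 to 3 (mitral valve, IR/CHT against CHT), 0 to 1 (pulmonary valve, IR/CHT) and 0 to 6 (tricuspid valve, IR/CHT), and leaving out 1 rabbit gave 6 to 15 for semilunar against atrioventricular valves. The counts after IR/CHT against Ctrl stayed at 26 to 33 in the aorta, 35 to 38 in the aortic valve and 11 to 18 in the mitral valve. Without the rabbit as a block the mitral minus tricuspid counts were 1 (CHT) and 8 (IR/CHT), and no other count between tissues moved by over 1.5 times. At 1 CPM the median library holds 18.2 counts, a counting error of 23.4%, so members near or under that level could not be compared finely.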
